A study of Mus musculus with 6 samples.

Results

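Myeloid transcription factors and the receptors for colony-stimulating factors (CSFs) were examined in early thymic progenitors with and without Tcf1. The 10 genes are the factors Spi1, Cebpa, Cebpb, Cebpe, Irf4 and Irf8 and the receptor chains Csf1r, Csf2ra, Csf2rb and Csf3r, chosen by name for the myeloid potential of these cells. Every probe set that the array annotation assigns to 1 of these symbols was taken, which gave 16 of 45037 tested probe sets and 9 of 18193 genes. Cebpe had no such probe set and was not analysed here.

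The arrays were Affymetrix Mouse Genome 430 2.0 and measured RNA abundance in 3 Tcf1-/- and 3 Tcf1-/+ samples of C57Bl/6 background, from mice killed at 10 weeks of age. Tcf1 is a transcription factor of the Wnt pathway on which early T-cell development depends. Thymus cells without lineage markers or CD25 but with CD44 and kit were sorted, the gate of the most immature thymocytes. RNA of about 3 ng per 1000 cells was amplified before labelling. The sample titles name the controls Tcf1-/+, while another label calls them wild type, so their genotype is not settled. The labels do not describe the Tcf1 allele or the number of animals behind an array, and p-values measure only the spread between these samples.

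Early thymic progenitors still hold myeloid potential, which is lost as they commit to the T lineage. Spi1 encodes PU.1, an ETS-family factor that directs macrophage and dendritic fates and is silenced at commitment. C/EBP factors drive granulocyte and monocyte programmes together with PU.1, and IRF4 and IRF8 bind with PU.1 at composite DNA sites. The CSF receptors carry the signals of M-CSF, GM-CSF and G-CSF to myeloid precursors, and in human cells PU.1 and C/EBP proteins bind the promoters of several of them.

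Promoters of the members Csf2ra and Csf3r are shown because they join the 2 kinds of member, receptor genes and the factors known to bind such promoters. They are the 250 bases before the transcription start in RefSeq, build GRCm38.p6, 5′ to 3′ on the strand of the gene. Capitals mark GAGGAA, a core that PU.1 binds, or TTNCNNAA, a loose form of the C/EBP site, searched on both strands.
Csf2ra, chr19:61228419-61228668, minus strand: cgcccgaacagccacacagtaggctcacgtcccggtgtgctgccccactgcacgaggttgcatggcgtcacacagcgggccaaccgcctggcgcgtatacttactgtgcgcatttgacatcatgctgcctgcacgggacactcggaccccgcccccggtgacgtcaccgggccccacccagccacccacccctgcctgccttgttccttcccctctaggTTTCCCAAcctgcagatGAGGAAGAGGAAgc
Csf3r, chr4:126024409-126024658, plus strand: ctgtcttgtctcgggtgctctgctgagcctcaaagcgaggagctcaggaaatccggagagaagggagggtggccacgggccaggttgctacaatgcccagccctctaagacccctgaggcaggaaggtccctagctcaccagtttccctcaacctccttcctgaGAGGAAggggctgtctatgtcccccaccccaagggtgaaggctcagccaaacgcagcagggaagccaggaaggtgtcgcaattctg
The Csf2ra window held 2 adjoining GAGGAA and 1 TTNCNNAA, and the Csf3r window held 1 GAGGAA and 0 TTNCNNAA, with no overlap between the motifs. Of the members not shown, Irf4 held 1 GAGGAA, and Cebpa, Cebpb and both windows of Irf8 held neither motif. Matches are not given here for Csf1r, Csf2rb and Spi1. Of 32851 promoter windows of the same length, 23.3% held GAGGAA and 36.8% held TTNCNNAA. A match is a description of the letters and not a site.

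Array values are log2 signals, and 5.21, the 95th percentile of 27 bacterial control probe sets, was taken as the background level. The arrays correlated with each other between 0.913 and 0.933, except Tcf1-/- replicate 2, which correlated with the other 5 between 0.870 and 0.893. On that array the 3′ minus 5′ difference of the Tfrc controls was 0.055, against -1.08 to -0.62 on the others. For Gapdh it was 2.78 there, within the 1.74 to 2.89 of the others, and for Actb -0.19 there, against -0.17 to -0.074. Y-linked signal was high on 3 arrays, Tcf1-/- replicates 2 and 3 and Tcf1-/+ replicate 2, with a mean of 8.42 to 9.39. It was low on the other 3, with 4.01 to 5.004. Xist, the X-inactivation transcript, read 13.18 and 12.87 on Tcf1-/- replicates 2 and 3, but 5.12 on Tcf1-/+ replicate 2. On the 3 arrays of low Y-linked signal Xist lay between 13.39 and 13.45. The Y-linked grouping is therefore not read as sex, and the reason for the Xist values was not tested. Kit, part of the gate, read 9.99, 7.45 and 9.60 on the Tcf1-/- arrays, against 10.80, 10.50 and 9.83 on the Tcf1-/+ arrays. Cd44 lay between 9.60 and 10.39 on all arrays. Il2ra, which encodes the CD25 the gate selected against, lay between 9.22 and 10.97, well above background. The 8 early thymic progenitor markers averaged 9.82 to 10.07 in Tcf1-/- and 10.15 to 10.32 in Tcf1-/+. Among them Flt3 and Cd34 differed by -1.53 and -1.24 and Il7r by 2.00, each without overlap, and the rest overlapped. Of the 7 measured monocyte and macrophage markers, Cd14, Adgre1 and Itgam lay under background on every array, while Ccr2 and Cd68 lay above it on every array and Cx3cr1 and Fcgr1 on 4 of 6.

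No difference between the genotypes passed the test for any member. Genotypes were compared with limma over all probe sets, with p-values adjusted by the Benjamini-Hochberg method and a threshold of 0.05. Of the 16 member probe sets 0 passed, and 0% of all probe sets did. At an unadjusted p under 0.05 there was 1 member probe set, of Csf1r, where 6.48% of all probe sets had such a p and 3.51% had it with a lower Tcf1-/- mean. The same probe set was the 1 of 16 whose genotypes did not overlap, against 11.8% of all probe sets, or 5.27% in the direction of a lower Tcf1-/-. Means were lower in Tcf1-/- for 9 of the 16, where 47% of all probe sets had lower means. Adjusted p-values of the members from limma lay between 0.688 and 0.998. Without Tcf1-/- replicate 2, 13 of the 16 had lower means, as 50.1% of all probe sets did, and again 0 passed. Leaving out each of the other 5 arrays gave 9 to 13 lower means and 0 passed.

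**Figure D1:**
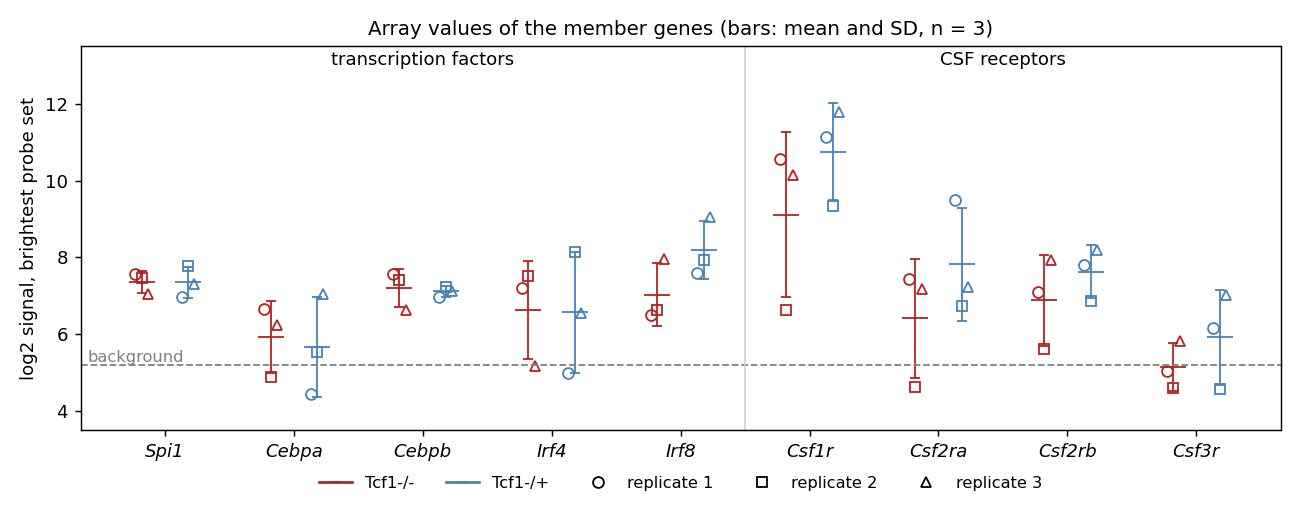
Log2 signal of the brightest probe set of each of the 9 measured genes (vertical axis) on the 3 Tcf1-/- arrays (red, left of each pair) and the 3 Tcf1-/+ arrays (blue, right), with mean and SD and the background level as a dashed line. Symbols mark the replicate, and values of different genes are on different probe scales. The genotypes overlap for all 9 genes, and Tcf1-/- replicate 2 is the lowest point for Csf1r, Csf2ra and Csf2rb.

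Spi1, measured by 1 probe set, varied little. It read 7.57, 7.47 and 7.04 on the Tcf1-/- arrays, against 6.97, 7.78 and 7.30 on the Tcf1-/+ arrays. The genotypes were interleaved, and all 6 arrays were above background. The means were 7.36 ± 0.28 in Tcf1-/- and 7.35 ± 0.41 in Tcf1-/+ (SD, n = 3 each). The difference was 0.01 with a 95% interval of -0.69 to 0.71 (adjusted p from limma 0.998). Differences within that interval are not resolved by these arrays.

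Cebpb, a factor of granulocyte and macrophage maturation that is also induced by inflammation, varied as little. Its brighter probe set read 7.56, 7.42 and 6.64 on the Tcf1-/- arrays, against 6.97, 7.24 and 7.13 on the Tcf1-/+ arrays. The highest and the lowest value were both in Tcf1-/-. The difference was 0.09 (interval -0.63 to 0.82). The other probe set lay between 6.42 and 6.92 in Tcf1-/- and between 6.69 and 6.91 in Tcf1-/+, with a difference of -0.07 (interval -0.61 to 0.47).

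Cebpa, the factor that granulocyte-monocyte progenitors require, was low and variable. It read 6.66, 4.88 and 6.24 on the Tcf1-/- arrays, against 4.45, 5.53 and 7.05 on the Tcf1-/+ arrays. One array of each genotype was under background, and Tcf1-/+ replicate 3 was the highest. The difference was 0.25, with an interval of -1.64 to 2.14 that leaves its direction unresolved.

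Irf8, which directs monocyte and dendritic fates and restrains granulocytes, had a lower Tcf1-/- mean on its brighter probe set. That probe set read 6.51, 6.62 and 7.97 on the Tcf1-/- arrays, against 7.60, 7.94 and 9.05 on the Tcf1-/+ arrays. Only Tcf1-/- replicate 3 reached into the Tcf1-/+ range. The means were 7.03 ± 0.81 in Tcf1-/- and 8.20 ± 0.76 in Tcf1-/+ (SD, n = 3 each), and differed by -1.17, with an interval of -2.51 to 0.18 (adjusted p from limma 0.821). Without Tcf1-/+ replicate 3 it was -0.74. Within the 3 arrays of high Y-linked signal it was -0.65, and within the 3 of low signal -1.82. Here and below, Tcf1-/+ replicate 2 stands alone for its genotype in the high group, and Tcf1-/- replicate 1 in the low group. The other probe set of Irf8 had no such order. It read 6.75, 8.18 and 6.90 in Tcf1-/-, against 6.12, 6.52 and 8.42 in Tcf1-/+, with a difference of 0.26 (interval -1.47 to 1.99). On both probe sets Tcf1-/+ replicate 3 was the highest of the 6 arrays.

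Irf4, a relative of Irf8 used in lymphoid and dendritic cells, differed more between replicates than between genotypes. Its brighter probe set read 7.22, 7.51 and 5.16 on the Tcf1-/- arrays, against 5.004, 8.15 and 6.55 on the Tcf1-/+ arrays. One array of each genotype was under background. The difference was 0.06 (interval -2.31 to 2.43). The other probe set lay under background on all 6 arrays, and the size and sign of its difference, -0.052, are not measured.

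Among the receptors, the brightest probe set of each of the 4 genes had a lower mean in Tcf1-/-, and none of the differences passed the test. Of all genes, 45.7% had lower Tcf1-/- means. Csf1r, the M-CSF receptor of macrophages and their precursors, read 10.57, 6.64 and 10.14 on the Tcf1-/- arrays, against 11.13, 9.35 and 11.78 on the Tcf1-/+ arrays. Tcf1-/- replicate 2 was far below the other 5, and its 2 companions lay above 1 of the Tcf1-/+ arrays. The means were 9.12 ± 2.15 in Tcf1-/- and 10.75 ± 1.26 in Tcf1-/+ (SD, n = 3 each), and they differed by -1.63 (interval -4.53 to 1.26, adjusted p from limma 0.895). Without Tcf1-/- replicate 2 the difference was -0.40. It was -0.96 within the arrays of high Y-linked signal and -0.88 within those of low signal.

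The other probe sets of Csf1r did not share a direction. The one of middle brightness read 6.89, 7.18 and 6.95 on the Tcf1-/- arrays, against 8.32, 7.41 and 7.92 on the Tcf1-/+ arrays. Every Tcf1-/- array was below every Tcf1-/+ array, with Tcf1-/- replicate 2 the closest to the Tcf1-/+ range. The means were 7.01 ± 0.16 in Tcf1-/- and 7.88 ± 0.46 in Tcf1-/+ (SD, n = 3 each). The difference was -0.88 with an interval of -1.57 to -0.19, and an adjusted p from limma of 0.688. The dimmest probe set read 6.95, 7.69 and 7.11 in Tcf1-/-, against 7.42, 5.89 and 7.39 in Tcf1-/+, a difference of 0.35 (interval -0.83 to 1.53). Here Tcf1-/- replicate 2 was the highest of the 6 arrays.

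Csf2ra encodes the ligand-specific chain of the GM-CSF receptor. Its brighter probe set read 7.43, 4.63 and 7.18 on the Tcf1-/- arrays, against 9.49, 6.74 and 7.22 on the Tcf1-/+ arrays. Tcf1-/- replicate 2 was under background and Tcf1-/+ replicate 1 was far above the rest. The difference was -1.40 (interval -3.89 to 1.09), -0.51 without Tcf1-/- replicate 2 and -0.57 without Tcf1-/+ replicate 1. It was -0.83 within the arrays of high Y-linked signal and -0.93 within those of low signal. On the dimmer probe set both means lay under background, although Tcf1-/+ replicate 3 read 7.06.

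Csf2rb encodes the common beta chain that GM-CSF, IL-3 and IL-5 receptors share. Its brighter probe set read 7.11, 5.61 and 7.93 on the Tcf1-/- arrays, against 7.81, 6.86 and 8.20 on the Tcf1-/+ arrays. The ranges of the genotypes overlapped. The difference was -0.74 (interval -2.37 to 0.88), and -0.11 without Tcf1-/- replicate 2. It was -0.095 within the arrays of high Y-linked signal and -0.90 within those of low signal. The dimmer probe set had the widest spread among replicates of the 16 in Tcf1-/-. It read 7.97, 4.48 and 9.53 there, against 5.60, 6.57 and 8.33 in Tcf1-/+, with a difference of 0.49 (interval -2.90 to 3.89).

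Mouse cells have a near-identical paralog, Csf2rb2, whose product serves the IL-3 receptor, and probe sets of the pair may share signal. Csf2rb2 read 7.08, 4.35 and 7.26 on the Tcf1-/- arrays, against 4.59, 5.78 and 5.05 on the Tcf1-/+ arrays. Tcf1-/- replicates 1 and 3 were above all Tcf1-/+ arrays and replicate 2 was below them, and the difference was 1.09 (interval -0.95 to 3.13). The Tcf1-/+ mean of 5.14 lay under the background level, so the size of this difference is not well measured. A probe set annotated to both genes lay between 7.47 and 8.24 in Tcf1-/- and between 7.40 and 7.75 in Tcf1-/+. Its difference was 0.23 (interval -0.42 to 0.88).

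Csf3r, the G-CSF receptor of the neutrophil lineage, was close to background. It read 5.04, 4.60 and 5.83 on the Tcf1-/- arrays, against 6.17, 4.58 and 7.01 on the Tcf1-/+ arrays. The Tcf1-/- mean of 5.15 ± 0.62 lay under the background level and the Tcf1-/+ mean of 5.92 ± 1.24 above it (SD, n = 3 each). The difference of -0.77 (interval -2.41 to 0.88) is therefore not well measured. It was -0.22 without Tcf1-/+ replicate 3 and -1.44 without Tcf1-/+ replicate 2. Within the 3 arrays of high Y-linked signal it was 0.64, and within the 3 of low signal -1.55.

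**Figure D2:**
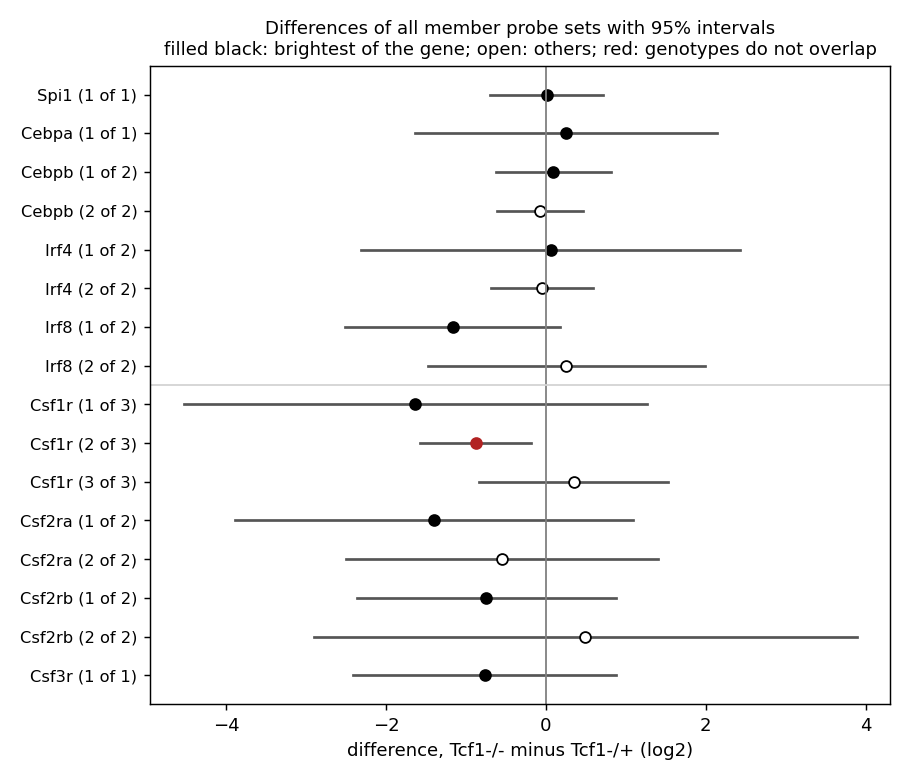
Difference of each of the 16 member probe sets, Tcf1-/- minus Tcf1-/+ on the log2 scale (horizontal axis), with limma's 95% interval, grouped by gene with the brightest probe set first. For 15 of the 16 the interval holds 0, and the exception is the Csf1r probe set in red, whose genotypes do not overlap.

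Probe sets of a gene often differed in sign. Among probe sets with both means above background, 4 members had 2 or more, Cebpb, Irf8, Csf1r and Csf2rb, and all 4 held both signs, where 54.5% of all such genes did. The 2 brighter Csf1r probe sets had lower Tcf1-/- means, and its dimmest had a higher one.

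The members varied more between replicates than a typical probe set. The median SD of the 16 was 0.71 within Tcf1-/- and 1.05 within Tcf1-/+, against 0.40 within Tcf1-/- and 0.34 within Tcf1-/+ over all probe sets. Of all 45037 probe sets, 11987 lay under background on all 6 arrays, and SDs of probe sets matched for level were not computed. Averaged over the 4 receptor genes after centring each on its mean over the arrays, the Tcf1-/- arrays lay at 0.08, -2.09 and 0.31, and the Tcf1-/+ arrays at 1.19, -0.58 and 1.09. The 5 factor genes lay at 0.20, -0.13 and -0.30 in Tcf1-/-, and at -0.71, 0.42 and 0.51 in Tcf1-/+. Tcf1-/- replicate 2 was the lowest array on the receptor average and lay within the range of the others on the factor average. Within Tcf1-/+ too, replicate 2 was the lowest on the receptor average, at -0.58. Tcf1-/+ replicate 3 was the highest array for 7 of the 16 probe sets, where 15% of all probe sets were highest on it. Tcf1-/- replicate 2 was the lowest for 4 of the 16, where 19.7% of all probe sets were.

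**Figure D3:**
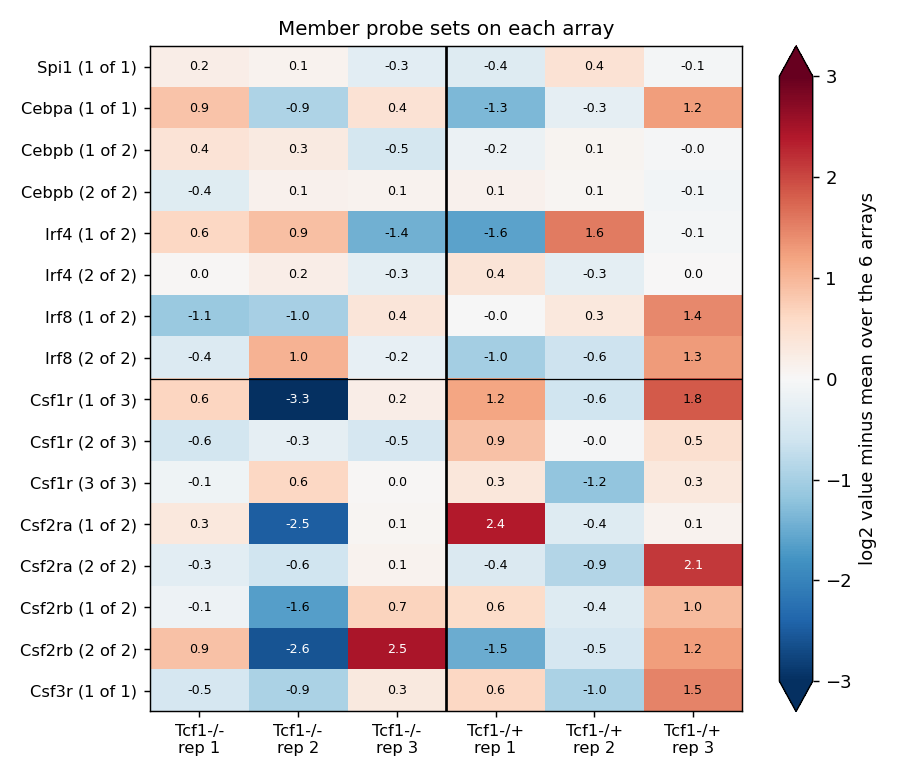
Log2 value of each member probe set (rows, numbered by brightness within a gene) minus its mean over the 6 arrays (columns, Tcf1-/- left, Tcf1-/+ right). Blue fields on Tcf1-/- replicate 2 stand out for the brightest Csf1r, the brighter Csf2ra and both Csf2rb probe sets, while the dimmest Csf1r probe set is highest there. Tcf1-/+ replicate 3 is the highest array for 7 probe sets.

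Markers of other blood cells moved between these arrays too. Mast cell and basophil markers, 4 of 5 of them measured, averaged 9.50, 7.29 and 9.88 on the Tcf1-/- arrays, against 6.70, 6.48 and 7.997 on the Tcf1-/+ arrays. Among them Ms4a2, a chain of the IgE receptor, read 10.25, 5.36 and 9.77 in Tcf1-/-, against 4.64, 7.01 and 8.53 in Tcf1-/+. Like the dimmer Csf2rb probe set, it was low on Tcf1-/- replicate 2 and Tcf1-/+ replicate 1, and it was chosen after its values were seen. The other 3, Cpa3, Mcpt8 and Fcer1a, had their lowest value on Tcf1-/+ replicate 2 instead. Cpa3 and Mcpt8 were higher on every Tcf1-/- array than on any Tcf1-/+ array, with differences of 1.09 and 3.14. For Fcer1a and Ms4a2 the genotypes overlapped, with differences of 1.38 and 1.73. Neutrophil markers, 6 of 7 measured, averaged 5.85, 6.16 and 8.12 in Tcf1-/-, against 4.84, 5.24 and 6.37 in Tcf1-/+, with Mmp8 under background throughout. Monocyte and macrophage markers, 7 of 8 measured, averaged 5.51 to 5.72 in Tcf1-/- and 5.13 to 5.41 in Tcf1-/+. They did not share a direction, with Ccr2, Cx3cr1 and Fcgr1 at 1.74, 0.73 and 0.05 and Cd68 at -0.90, each with overlap. Dendritic markers, 8 of 9 measured, averaged 6.99 to 7.72 in Tcf1-/- and 6.99 to 8.42 in Tcf1-/+, and they did not share a direction. Cd74 and Flt3 differed by -1.61 and -1.53 without overlap. With overlap, H2-Eb1, H2-Aa and Xcr1 differed by -1.69, -0.50 and -0.57, and Itgax, Batf3 and Siglech by 1.13, 0.80 and 0.06. The Tcf1-/- mean of Xcr1 lay under background. NK and innate lymphoid markers, 4 of 6 measured, averaged 9.01, 9.38 and 9.70 in Tcf1-/-, against 6.53, 7.08 and 7.17 in Tcf1-/+, without overlap. Gzmb, Id2 and Il18r1 differed by 4.06, 3.19 and 2.43, and Ncr1, with both means under background, by 0.07. Erythroid markers, 3 of 5 measured, averaged 8.14, 6.62 and 7.32 in Tcf1-/-, against 4.44, 4.59 and 7.48 in Tcf1-/+, with Hba-a1 under background throughout. B-lineage markers, 5 of 6 measured, averaged 5.45 to 5.65 in Tcf1-/- and 5.27 to 5.62 in Tcf1-/+. The 7 T-lineage markers averaged 6.68 to 7.31 in Tcf1-/- and 7.11 to 7.95 in Tcf1-/+, and they did not share a direction. Cd4, Bcl11b and Cd8a differed by 2.93, 0.62 and 0.46, and Cd3e, Cd3g, Cd3d and Rag1 by -1.66, -1.92, -1.06 and -1.88. The Tcf1-/- mean of Rag1 lay under background. The part of the marked cell types in the members' values was not tested. In bulk RNA fewer cells of a type and less RNA per cell cannot be told apart.

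The genes whose pattern over the 6 arrays was most like a member were sought for the 3 members of widest range, by the root mean square difference of centred log2 values among 12712 genes above background. For Csf1r they were Cisd1 at 0.29, a mitochondrial outer membrane protein, Fam216a at 0.42 and Ddias at 0.44. For Csf2ra they were Nxt1 at 0.34, an RNA export cofactor, Sgf29 at 0.40 and Amot at 0.41. For Irf4 they were Slc39a10 at 0.46, a zinc transporter, Rfc4 at 0.52, a subunit of a DNA clamp loader, and Gphn at 0.53. Cisd1 read 8.66, 5.01 and 9.06 in Tcf1-/-, against 9.82, 7.58 and 10.04 in Tcf1-/+, and so had its low on the same array as Csf1r. With 6 arrays and this many genes, close profiles are easily met, and the likeness is a description.

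Of the genes around the members, 5 lists were read from the same fit, and 0 genes of any list passed the adjusted threshold in limma, as for 0% of all genes. Over all genes 3.4% had an unadjusted p under 0.05 with a lower Tcf1-/- mean and 3.38% with a higher one, and the median difference was 0.04. Most list genes named below with a higher Tcf1-/- mean were highest on Tcf1-/- replicate 2, the array least like the others. Csf2, Irf2, Id2, Maf and Fcer1g are among them, while Ngp, Itgb2 and S100a8 were highest on Tcf1-/- replicate 3. Differences of the list genes without replicate 2 are not given here.

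CSF ligands and other receptors had 5 lower and 7 higher means among 12 measured of 13, with a median difference of 0.06. At an unadjusted p under 0.05 there was 1 lower and 0 higher, and 4 members had both means under background. The lower one was Flt3, a receptor of multipotent and dendritic progenitors, at 8.54, 8.29 and 7.17 on the Tcf1-/- arrays, against 9.17, 9.56 and 9.86 on the Tcf1-/+ arrays. The genotypes did not overlap, and the difference was -1.53 (SE 0.42, adjusted p from limma 0.598). Csf2, which encodes GM-CSF, read 6.06, 8.54 and 6.50 in Tcf1-/-, against 4.99, 4.96 and 6.34 in Tcf1-/+. Its difference was 1.60 (SE 0.74), with 1 Tcf1-/- array inside the Tcf1-/+ range. Csf1, which encodes the ligand of Csf1r, differed by 0.65 (SE 0.34), and its other 3 probe sets had the same sign. Kit, the stem cell factor receptor given above, differed by -1.36 (SE 0.71).

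Relatives of the factors had 9 lower and 9 higher means among 18 measured of 20, with a median of 0.08, and 0 lower and 1 higher at an unadjusted p under 0.05. That one was Irf7, an interferon regulator, at 0.81 (SE 0.32). Irf2, a repressor of interferon signalling, read 7.86, 9.45 and 7.73 in Tcf1-/-, against 7.52, 7.11 and 7.49 in Tcf1-/+. The difference was 0.97 (SE 0.50) without overlap, and Tcf1-/- replicate 2 stood well above all other arrays. Cebpd, a C/EBP relative, differed by 0.53 (SE 0.22) from a Tcf1-/+ mean under background, and also did not overlap. Ets1, a lymphoid ETS factor, differed by 1.02 (SE 0.53) with overlap.

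Partners and opponents of the factors had 12 lower and 11 higher means among 23 measured of 24, with a median of -0.01. At an unadjusted p under 0.05 there were 1 lower and 3 higher. Maf, an AP-1 family factor of macrophages and T cells, read 11.71, 12.99 and 12.28 in Tcf1-/-, against 9.11, 10.46 and 9.56 in Tcf1-/+. Each Tcf1-/- array was above each Tcf1-/+ array, the difference was 2.62 (SE 0.47, adjusted p from limma 0.438), and its other 5 probe sets had the same sign. Id2, an inhibitor of E proteins, differed by 3.19 (SE 0.49). Egr1, a factor of the macrophage programme downstream of PU.1, differed by 1.75 (SE 0.61) with overlap. Bcl11a, a progenitor and B-lineage factor, differed by -0.52 (SE 0.21), without overlap and with the same sign on its other 6 probe sets.

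Genes of CSF receptor signalling had 11 lower and 12 higher means among 23 measured of 26, with a median of 0.01, and 0 lower and 1 higher at an unadjusted p under 0.05. The 1 was Cish, a feedback inhibitor induced by STAT5, at 7.51, 8.30 and 7.03 in Tcf1-/-, against 6.23, 6.53 and 6.48 in Tcf1-/+. The genotypes did not overlap, and the difference was 1.20 (SE 0.35, adjusted p from limma 0.639). Dok1, an adaptor that dampens kinase signals, differed by 0.75 (SE 0.31), the feedback inhibitor Socs1 by 0.50 (SE 0.33) and the myeloid Src-family kinase Fgr by 1.95 (SE 0.89), all with overlap. The other probe set of Fgr had the opposite sign.

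Myeloid effector genes had 8 lower and 20 higher means among 28 measured of 32, with a median difference of 0.50 against 0.04 for all genes. At an unadjusted p under 0.05 there were 0 lower and 3 higher, and 5 members had both means under background. The 3 were Fcer1g, an adaptor chain of Fc receptors, at 2.27 (SE 0.31), Ngp, a neutrophil granule protein, at 1.95 (SE 0.77), and Itgb2, the beta chain of leukocyte integrins, at 0.80 (SE 0.33). Ngp had a Tcf1-/+ mean under background. The average of the NK and innate lymphoid markers was higher on the same arrays, at 9.01 to 9.70 in Tcf1-/- against 6.53 to 7.17 in Tcf1-/+. Its member Ncr1 had both means under background. Of the mast cell and basophil markers, Cpa3 and Mcpt8 were also higher on every Tcf1-/- array, with differences of 1.09 and 3.14, while Fcer1a and Ms4a2 overlapped. The part of any of these cell types in the differences of the effector genes was not tested. S100a8, a calcium-binding protein of neutrophils, read 8.003, 8.83 and 9.67 in Tcf1-/-, against 4.07, 5.99 and 8.53 in Tcf1-/+. It differed by 2.64 (SE 1.14), and Tcf1-/+ replicate 3 lay within the Tcf1-/- range.

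**Figure D4:**
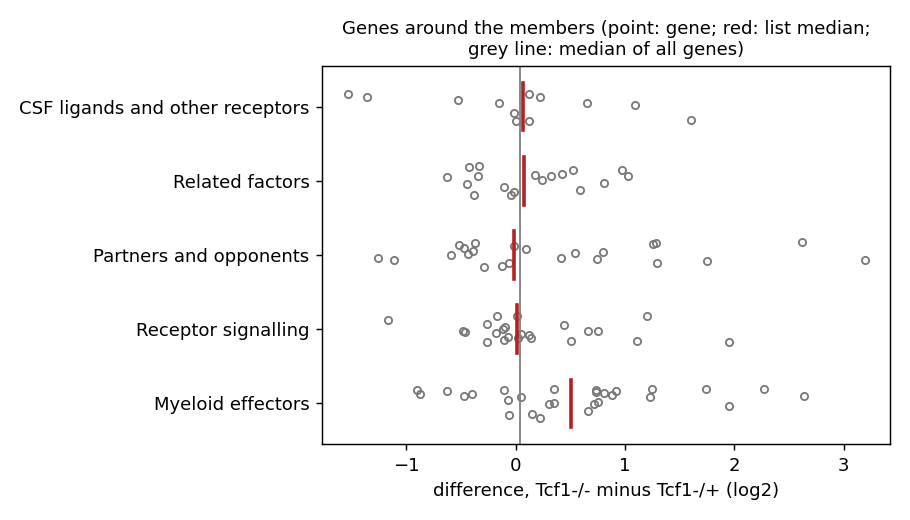
Difference of each gene, Tcf1-/- minus Tcf1-/+ on the log2 scale (horizontal axis), in the 5 lists of genes around the members, with the list median in red and the median of all genes, 0.04, as a grey line. The medians of 4 lists lie between -0.01 and 0.08, and that of the myeloid effectors at 0.50.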

How the data were processed

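The deposited table holds a log2 value for each probe set on 6 arrays. The summary and normalization used by the authors are not given in the sources used. The log2 scale was read from the deposited values, which ran from 2.15 to 14.8 with array medians of 5.80 to 5.86. They were used as deposited. The 64 control probe sets of 45101 were left out. GEO's platform annotation gave 1 symbol to 34945 of the 45037 others, several to 932 and none here to 9160. The probe set with the highest 6-array mean stood for each gene. Tcf7, which encodes Tcf1, had no named probe set, so the label check on the targeted gene was not made.

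The comparison used lmFit and eBayes of limma 3.58.1 under R 4.3.3 (two-sided, no covariates), with Benjamini-Hochberg adjustment over all 45037 probe sets and a threshold of 0.05. Differences are Tcf1-/- minus Tcf1-/+, and SEs and intervals are limma's. An exact test of 3 arrays against 3 cannot go below 0.1 and was not used. Arrays have no read depth, and their number limits the precision.

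The members, the gene lists and the rules were chosen with earlier results of these data known. Named genes are all members, Csf2rb2, up to 4 genes of each list with the smallest unadjusted p and at least 1 genotype mean above background, the 3 genes most like each of 3 members, and markers of the gate and of other cells. Maf, Id2 and the other list genes were so chosen, and no p adjusted over a list was computed.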

Additional observations from a re-analysis of the deposited data

How the results depend on the processing

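Alternative fits used the replicate block, quantile normalization, a common median, each array left out and array weights. Others used the filter on mean level, the floor at background and the Y-linked covariate. All of these called 0 member probe sets and 0 of all probe sets at the adjusted threshold. Unadjusted, they gave 0 to 2 member probe sets with a p under 0.05. Added after seeing the data, the 3 arrays of high and the 3 of low Y-linked signal were also fitted alone. In each of these fits 1 genotype had a single array, so only differences are given. Differences of Csf1r and Csf2ra were negative in all 17 alternatives run for each, from -2.36 to -0.40 and from -1.94 to -0.51. The dimmest Csf1r probe set, with both means above background, was not run alone among them, and it differed by 0.35. The second-brightest Csf2ra probe set was among them at -0.55, with both means under background, so its sign is not well measured. Leaving out 1 array turned signs of small factor differences, with ranges of -0.18 to 0.22 for Spi1, -0.36 to 0.93 for Cebpa, -0.084 to 0.38 for Cebpb and -0.72 to 0.85 for Irf4. On the second-brightest probe set the difference was -0.071 for Cebpb, -0.052 for Irf4 (under background on every array, so its sign is not measured), 0.26 for Irf8 and 0.49 for Csf2rb. With the Y-linked covariate it was -0.078 for Spi1 and -0.30 for Irf4, and with array weights -0.066 for Irf4. On the high Y-linked arrays alone it was -0.52 for Spi1, -0.21 for Cebpb, -1.82 for Irf4 and 0.64 for Csf3r. The cause of these turns was not tested. With the replicate number as a block, 2 member probe sets had an unadjusted p under 0.05, and 3074 of all probe sets against 2917 without it. Over all probe sets, deviations of same-numbered arrays correlated at 0.01 to 0.04, and the numbers were not taken as pairs. That correlation does not describe the receptors, whose brightest probe sets were each lowest on replicate 2 within both genotypes. With the block, adjusted p-values from limma were 0.686 for Csf1r, 0.736 for Csf2ra, 0.744 for Csf2rb and 0.779 for Csf3r. Without it they were 0.895, 0.895, 0.908 and 0.908. For Irf8 the value was 0.629 with the block and 0.821 without. The reason was not tested.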
